A study of Mus musculus with 8 samples.

Results

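These data describe how mouse primary myotubes responded to leukaemia inhibitory factor (LIF), across all genes tested. The comparison rests on 4 of the 8 RNA-seq libraries of the series, chosen by their labels: 2 from LIF-treated and 2 from control myotubes. The myotubes, multinucleated fibres formed by fusion of muscle precursor cells, were grown from limb-muscle myoblasts of wild-type pups that were 2 to 3 days old and were differentiated in medium with 5% horse serum. Growth serum and basic fibroblast growth factor (bFGF) are also listed, the same for all 8 libraries. LIF was given at 250 ng/ml for 48 h, controls are labelled only as control with no vehicle named, and all cultures were harvested 72 h after differentiation. The other 4 libraries hold myotubes given oncostatin M (OSM) or interleukin 6 (IL6) at the same dose and time, 2 libraries each. Whether replicates are separate pups, litters or dishes is not given in the labels, so p-values measure the spread between these libraries, which may be technical.

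LIF is a secreted cytokine that binds the LIF receptor (Lifr), which pairs with gp130 (Il6st), a subunit that OSM and IL6 also use. The receptor complex activates JAK kinases, which phosphorylate STAT3 and, depending on the cell, other STAT proteins, and it also feeds the ERK pathway. STAT3 switches on Socs3, which in turn damps the receptor. In skeletal muscle LIF is known as a myokine and as a factor that acts on muscle precursor proliferation and, in wasting conditions, on muscle mass.

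The 8 libraries held between 29482077 and 30025471 counts in genes, and the 2 LIF libraries were the closest pair of replicates, with a chi-square per gene of 2.97 against 9.71 for the 2 controls. Levels are given as CPM, the counts relative to library size after TMM scaling, for library 1 and then library 2 of a group. A gene is called, and is said to rise or fall, at an adjusted p under 0.05 in edgeR's quasi-likelihood test with Benjamini-Hochberg adjustment over 15603 tested genes. Myotube markers fitted the label: the 12 listed sum to between 24176 and 25275 CPM in controls and 21539 and 22861 CPM with LIF, of which Actn3 rose and Myog, Mybph and Myh8 fell. In bulk RNA, fewer cells of a type and less RNA per cell cannot be told apart. Over 10% of the 50-base stretches or exon bases of Ccn2, Ccnd1, Cdc20, Cebpd, Cox6a2, Ctsb, Etv5, Gbp7, H2-T23, Igtp, Mcm7, Mmp19, Slc39a1, Tagln, Timp3, Tnnc2 and Uhrf1 are shared with or overlapped by other annotated genes, so their counts are less certain. The same holds for Actb, Ifitm3 and Ly6a.

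LIF changed 1195 genes, 7.66% of those tested. Of these, 655 rose (4.2% of tested genes) and 540 fell (3.46%). The response was mostly small. The median size of the called changes was 0.48 on the log2 scale, 759 of the called genes changed by less than 1.5-fold, and 121 rose and 55 fell by at least 2-fold (1.13% of tested genes). In each of the 1195 both LIF libraries lay beyond both controls, which over all tested genes was so for 25.2% in the higher and 26.8% in the lower direction, whether called or not. Without LIF replicate 2 the count was 310 and without LIF replicate 1 it was 429, in fits where the remaining LIF library is assumed to vary like the other groups.

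The largest rise among protein-coding genes averaging at least 100 counts was in Serpina3n (ENSMUSG00000021091), a secreted serine protease inhibitor of the acute phase. It was at 0.721 and 1.44 CPM in the controls and 16.5 and 18.7 CPM with LIF, a log2 change of 4.01 ± 0.30, adjusted p 5.84e-05. Next came Rsad2 (ENSMUSG00000020641) and Ifit1 (ENSMUSG00000034459), antiviral genes described below, and Rtn4rl2, a Nogo receptor relative, which went from 2.68 and 2.15 to 12.8 and 12.3 CPM (log2 change 2.38 ± 0.16). Htr2a, a serotonin receptor gene, rose by 1.85, Man1a, a mannosidase of N-glycan trimming, by 1.6 and Olfml3, a secreted matrix protein gene, by 1.58. The largest fall was in Car3 (ENSMUSG00000027559), muscle carbonic anhydrase, from 25 and 18.8 to 3.8 and 5.19 CPM (−2.28 ± 0.16, adjusted p 4.39e-06). Dmp1, a secreted acidic matrix phosphoprotein gene, fell by 1.72, and Cacna1g, a T-type calcium channel gene, by 1.49. Pbp2 fell by 1.45, Adgrb2, an adhesion receptor gene, by 1.27, Dock8, a guanine exchange factor gene, by 1.18 and Prkcb, a protein kinase C gene, by 1.12. The LIF and control libraries of each of these genes did not overlap, which was a condition for being named here.

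**Figure D1:**
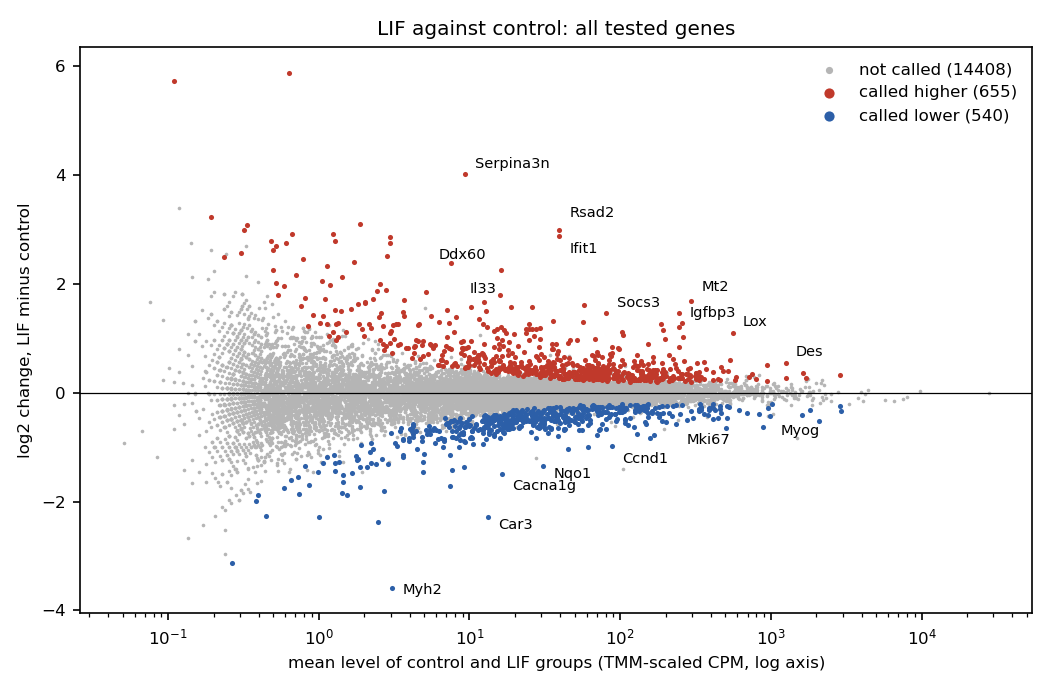
Each point is 1 of the 15603 tested genes, by its mean level in the control and LIF groups (CPM, log axis) and its log2 change, LIF minus control. Red points are the 655 genes called higher and blue points the 540 called lower, and labels mark genes described in the text, with Serpina3n highest of these at 4.01 and Myh2 lowest at −3.58.

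Among 24 tested genes of the gp130 receptors, their JAK kinases and STAT factors, 6 rose and none fell, with a median log2 change of 0.15 beside −0.0079 over all tested genes. The rises are 25% of those tested in the list, against 4.2% of all tested genes. The LIF receptor itself was not called: Lifr read 82.7 and 103 CPM in controls and 107 and 117 CPM with LIF (log2 change 0.27 ± 0.093, adjusted p 0.111), with both LIF libraries above both controls. Il6st, the gp130 gene, read 613 and 522 and 567 and 543 CPM, overlapping between groups. Osmr, which pairs with gp130 to bind OSM, rose from 65.1 and 68.2 to 108 and 104 CPM (0.67 ± 0.082, adjusted p 3.07e-04). Il6ra, the IL6-binding subunit, rose from 5.25 and 5.07 to 7.4 and 8.34 CPM (0.61 ± 0.14, adjusted p 0.0175), and lost its call when any 1 LIF or control library was left out.

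The kinase Jak2 rose by 0.65 ± 0.077, while Jak1 read a log2 change of 0.089 and was not called. Of the STAT genes, Stat2, a factor of interferon signalling, went from 25.5 and 27.1 to 50.1 and 47.2 CPM (0.89 ± 0.083), Stat5a rose by 0.81 and Stat3 by 0.32. Stat3 lost its call without LIF replicate 2. Stat5a shares 10.8% of its 50-base stretches with other transcripts, mainly Stat5b, so its counts are less certain.

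Genes listed as STAT3 targets and feedback responded more widely: of 28 tested, 13 rose and 1 fell, with a median log2 change of 0.24. That is 46.4% higher and 3.57% lower, against 4.2% and 3.46% of all tested genes. Socs3 (ENSMUSG00000053113), the feedback inhibitor of the receptor, went from 41.6 and 44.2 to 117 and 119.6 CPM (1.47 ± 0.064, adjusted p 3.15e-08). The 2 libraries of each group lay close together and the groups were far apart. Il4ra, the interleukin 4 receptor subunit, rose from 62.8 and 73.6 to 137 and 147 CPM (1.06 ± 0.082), the transcription factor gene Cebpd from 16.9 and 16.5 to 30.9 and 34.9 CPM (0.98) and Timp1, an inhibitor of metalloproteinases, from 75.8 and 66 to 127 and 122 CPM (0.81). The call of Cebpd was lost without LIF replicate 2 and without either control library. Smaller rises were in Bcl3 (0.65), Junb (0.60), Pim2 (0.57) and Hif1a (0.55). The member that fell was Ccnd1, the cyclin D1 gene, from 122 and 112 to 56.8 and 62.1 CPM (−0.98 ± 0.082, adjusted p 1.71e-05). In the GENCODE M21 annotation, 23.4% of the Ccnd1 exon bases and 15.0% of those of Cebpd overlap a gene on the opposite strand, and the strand setting of the counting is not given in the sources used here. Without either LIF library 7 of the 28 were called.

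Acute phase and complement genes include hepatic proteins that many cell types make under gp130 cytokines. Of 33 listed, 17 had enough counts to be tested and 7 of these rose, with none falling and a median of 0.38. The rises are 41.2% of those tested in the list, against 4.2% of all tested genes. Beside Serpina3n, the complement component C3 rose from 4.67 and 4.3 to 11.8 and 11.7 CPM (1.39 ± 0.14) and ceruloplasmin, Cp, a copper-carrying ferroxidase, from 61.2 and 70.05 to 135 and 148 CPM (1.11 ± 0.092). Low-count members were A2m, a protease trap, which rose from 0.0343 and 0.101 to 0.605 and 0.603 CPM (3.08 ± 0.62), and the complement protease gene C1s1, by 1.67. A2m lost its call without control replicate 1 or either LIF library, and 39.0% of the 50-base stretches of C1s1 also occur in transcripts of relatives such as C1s2. The list had 3 calls without LIF replicate 2 and without control replicate 1 it had 4.

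Interferon-induced genes form a family of antiviral sensors and effectors that are usually switched on by type I or II interferon. Of 57 tested, 13 rose (22.8%, against 4.2% of all tested genes) and none fell. The median over the list was 0.10, so the rise concerned a subset. Rsad2, which makes an antiviral nucleotide analogue, read 8.2 and 9.37 CPM in the controls, 72.8 and 67.6 CPM with LIF, 52.3 and 67.2 CPM with OSM and 12.1 and 12.4 CPM with IL6. The log2 change with LIF was 3.00 ± 0.12, adjusted p 3.15e-08. The LIF and OSM libraries were high and the control and IL6 libraries low, and LIF did not differ from OSM by the direct test (0.23 ± 0.10, adjusted p 0.222). Ifit1, which binds foreign RNA ends, read 9.2 and 9.77 CPM in controls, 71.3 and 67.4 with LIF, 44.5 and 54.4 with OSM and 13.8 and 11.3 with IL6, a change with LIF of 2.87 ± 0.12 (adjusted p 3.15e-08). Here both LIF libraries lay above both OSM libraries, and LIF was higher than OSM by 0.49 (adjusted p 0.00868).

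The RNA-sensing helicase genes Ddx60 and Ifih1 rose with them. Ddx60 went from 5.25 and 5.94 to 27.4 and 26.3 CPM (2.26 ± 0.15) and Ifih1 from 6.45 and 5.41 to 20.1 and 17.6 CPM (1.67 ± 0.14). Cmpk2, a mitochondrial nucleotide kinase gene that neighbours Rsad2, rose by 2.00, and Oasl1 by 1.53. Among interferon-induced GTPase genes, whose products attack pathogen vacuoles, Gbp7 rose from 7.24 and 7.05 to 25.3 and 24.2 CPM (1.79 ± 0.11), Gbp3 by 1.23 and Irgm1 by 0.97. Gbp7 shares 12.9% of its 50-base stretches with neighbours, and Tgtp2, which rose by 1.70, shares 90.6%, mostly with Tgtp1, so the reads of that pair cannot be assigned to 1 gene. In the direct tests LIF was higher than IL6 in 14 of the 57 members and lower in none, and it was higher than OSM in 4 and lower in 3. Over all tested genes LIF was higher than IL6 in 1.76% and lower in 1.02%. It was higher than OSM in 4.04% and lower in 4.01%.

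Other well-known interferon-induced genes were not called. Isg15 read 10.3 and 4.77 CPM in controls and 17.3 and 14.3 CPM with LIF (1.07 ± 0.28, adjusted p 0.0535), with both LIF libraries above both controls. Usp18, Irf7, Irf9, Bst2 and Ifi44 had fitted log2 changes of −0.56, −0.09, −0.11, −0.43 and −0.81. For each of these 5 genes control replicate 1 was above control replicate 2, as in Ifi44 with 6.69 and 1.75 CPM. Without control replicate 1 the list had 14 calls. Without LIF replicate 1 it had 7.

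Interferon ligands were read beside this response. Of 15 listed interferon ligands and receptors, 8 ligand genes, among them Ifnb1, Ifng and Ifnk, had 0 counts in each of the 4 libraries, and a count of 0 allows up to 3 counts in a library (counting error only). The 6 tested members were receptor subunits and none was called, with Ifnar1 at 42.5 and 41 CPM in controls and 42.4 and 43.8 CPM with LIF. Of 21 tested genes of MHC class I antigen presentation, which interferons also induce, 2 rose and none fell. H2-K1 rose by 0.42 and H2-T23 by 0.50, so 9.52% rose, against 4.2% of all tested genes. B2m and Tap1, shared parts of that pathway, had log2 changes of −0.065 and −0.18 and were not called. Both MHC calls were lost when either LIF library was left out.

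**Figure D2:**
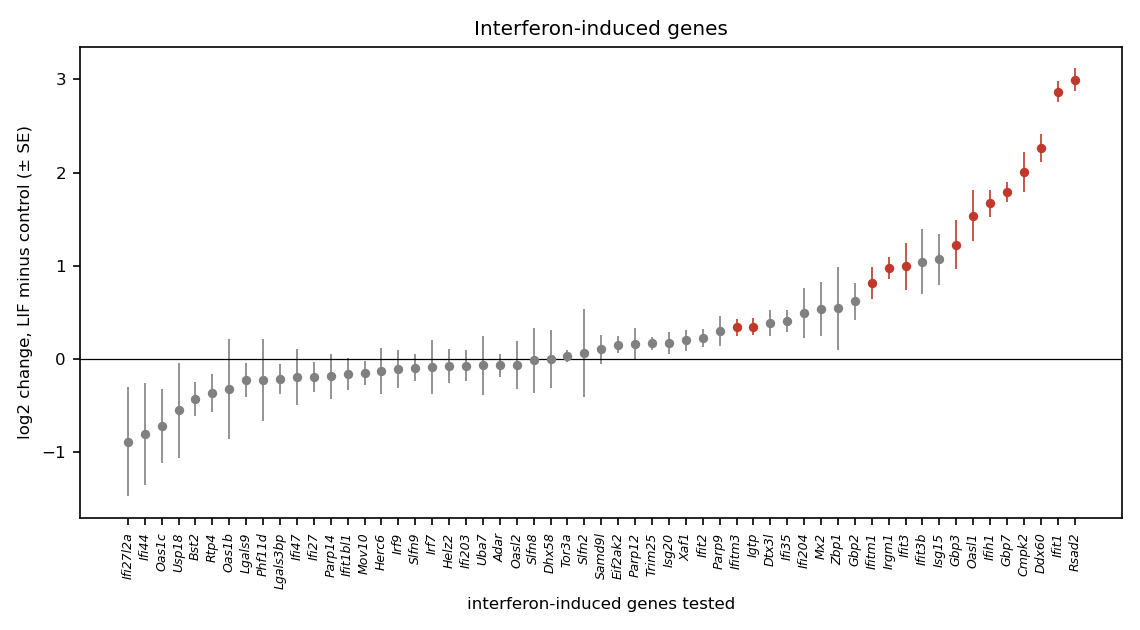
Log2 change, LIF minus control, with the SE of the fit (bars) for the 57 tested interferon-induced genes, ordered by size. Red marks the 13 called higher, from Igtp and Ifitm3 (0.34 and 0.34) to Rsad2 (3.00), and grey the 44 not called, which lie on both sides of 0.

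The promoters of the 5 interferon-induced genes with the largest rises are shown because the interferon-stimulated response element (ISRE) is the element that complexes of Stat2 and Irf9 bind. Sequences are the 250 bases before the start of the gene from the RefSeq promoter table (GRCm38.p6), 5′ to 3′ on the gene's strand, with matches to the ISRE core GAAANNGAA on either strand in capitals, and in Gbp7 also those to the GAS element TTCNNNGAA bound by STAT dimers. Rsad2 lies at chr12:26456453-26456702 on the minus strand, Ifit1 at chr19:34640639-34640888 on the plus strand, Ddx60 at chr8:61927837-61928086 on the plus strand, Cmpk2 at chr12:26468965-26469214 on the plus strand and Gbp7 at chr3:142530086-142530335 on the plus strand.
Rsad2: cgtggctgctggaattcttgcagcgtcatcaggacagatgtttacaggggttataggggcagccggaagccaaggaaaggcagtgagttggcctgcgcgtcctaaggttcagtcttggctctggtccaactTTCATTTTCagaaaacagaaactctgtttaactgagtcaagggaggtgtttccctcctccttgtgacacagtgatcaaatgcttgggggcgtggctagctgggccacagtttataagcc
Ifit1: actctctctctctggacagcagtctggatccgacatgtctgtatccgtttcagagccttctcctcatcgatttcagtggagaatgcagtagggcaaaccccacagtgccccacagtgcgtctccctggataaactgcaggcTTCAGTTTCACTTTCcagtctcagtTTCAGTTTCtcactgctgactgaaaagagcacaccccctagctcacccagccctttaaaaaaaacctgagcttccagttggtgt
Ddx60: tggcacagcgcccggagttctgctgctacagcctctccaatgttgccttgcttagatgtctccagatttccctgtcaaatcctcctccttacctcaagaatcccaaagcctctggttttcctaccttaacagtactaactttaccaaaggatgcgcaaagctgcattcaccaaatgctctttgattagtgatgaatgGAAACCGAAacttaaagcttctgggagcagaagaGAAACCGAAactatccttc
Cmpk2: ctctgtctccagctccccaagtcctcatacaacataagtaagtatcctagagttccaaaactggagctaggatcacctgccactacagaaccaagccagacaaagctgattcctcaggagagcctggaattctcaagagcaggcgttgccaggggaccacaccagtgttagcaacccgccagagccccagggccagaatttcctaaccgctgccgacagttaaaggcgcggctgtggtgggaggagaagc
Gbp7: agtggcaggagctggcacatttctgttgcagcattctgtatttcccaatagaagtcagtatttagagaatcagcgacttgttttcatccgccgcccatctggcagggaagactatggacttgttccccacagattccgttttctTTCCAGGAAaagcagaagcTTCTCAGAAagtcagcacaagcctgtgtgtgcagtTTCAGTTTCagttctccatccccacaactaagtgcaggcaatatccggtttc
Rsad2 holds 1 core match, Ifit1 3, of which a pair overlaps, and Ddx60 2 on the coding strand. Cmpk2 holds none. Gbp7 holds 1 core match and 2 GAS matches.

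The ISRE core stood in the 250 bases of 9 of the 13 called interferon-induced genes (69.2%), in 12 of the 32 uncalled members that have an entry in the table (37.5%), and in 8.18% of the 27025 genes in the table. Each gene counts once, by a match in any of its promoters. Shares of all promoters given below are shares of these 27025 genes, tested or not. In the nearest 100 bases the shares were 46.2%, 25% and 2.97%. The GAS element stood in 2 of the 11 called STAT3 targets that have an entry (18.2%), Socs3 among them, and in 1 of the 12 uncalled ones, against 8.13% of all promoters. In the nearest 100 bases it stood in 0 of the 11 called and 1 of the 12 uncalled targets, against 3% of all promoters. A match is a description of letters and not a site, and a missing match says only that these letters are not in this window. The Socs3 promoter, at chr11:117969367-117969616 on the minus strand, is shown as the feedback gene with its GAS match in capitals.
Socs3: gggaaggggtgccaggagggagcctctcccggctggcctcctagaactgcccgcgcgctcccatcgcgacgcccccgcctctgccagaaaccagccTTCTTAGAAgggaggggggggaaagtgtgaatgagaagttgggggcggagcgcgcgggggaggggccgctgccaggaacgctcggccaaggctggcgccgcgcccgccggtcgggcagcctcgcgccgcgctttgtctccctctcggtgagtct

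Metallothioneins, small zinc-binding proteins induced by STAT3 and by metal, were among the more abundant transcripts that rose. Mt1 went from 150.1 and 149 to 337 and 352 CPM (1.20 ± 0.15, adjusted p 0.0018) and Mt2 from 144 and 137 to 446 and 456 CPM (1.68 ± 0.16). The groups did not overlap for either gene. An antisense gene covers 73.5% of the Mt2 exon bases in M21, whereas Mt1 has no such overlap. Of 14 tested genes of this list 3 rose, the third being the zinc importer gene Slc39a1 (0.49), and none fell. The rises are 21.4% of those tested in the list, against 4.2% of all tested genes.

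Among chemokine and cytokine genes, 3 of 23 tested rose and 2 fell (13% and 8.7%, against 4.2% and 3.46% of all tested genes). Il33, a nuclear alarmin, went from 9.4 and 9.7 to 29.2 and 27.4 CPM (1.57 ± 0.16), Il13ra1, which pairs with Il4ra, from 113 and 126 to 258 and 269 CPM (1.14 ± 0.07), and the neutrophil chemoattractant Cxcl1 from 11.8 and 8.43 to 19.6 and 20.9 CPM (1.0). Cx3cl1, the membrane-bound chemokine fractalkine, fell from 83.3 and 94 to 47.9 and 55.5 CPM (−0.78 ± 0.10), and Csf1, the macrophage growth factor, fell by 0.38. Lif itself read 10.9 and 7.86 CPM in controls and 8.64 and 7.87 CPM with LIF, overlapping between groups. The cytokine list had 3 calls without LIF replicate 2. In the insulin-like growth factor list, 1 of 25 tested genes rose (4%, against 4.2% of all tested genes): Igfbp3, a binding protein for these factors, from 129 and 131 to 356 and 364 CPM (1.47 ± 0.096, adjusted p 4.34e-06). Igf1, Igf2 and Igf1r, the ligands and their receptor, had log2 changes of 0.15, 0.031 and 0.12 and were not called. Without either control library 3 genes of this list were called, and without either IL6 library 2.

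In the TGF-β and activin pathway, 6 of 39 tested genes rose (15.4%, against 4.2% of all tested genes) and none fell. They included both TGF-β receptor genes, Tgfbr2 (51.6 and 51.8 to 83.8 and 81.8 CPM, 0.68 ± 0.07) and Tgfbr1 (0.30), the BMP antagonist gene Nog (0.59) and the procollagen protease gene Bmp1 (0.44). The ligand genes Tgfb1, Mstn and Inhba had log2 changes of −0.093, 0.26 and −0.32, none called. Of 19 tested TIMP and metalloproteinase genes 7 rose (36.8%, against 4.2% of all tested genes) and none fell. Those that rose were Timp1, Timp3 (0.90), Adamts4 (0.81) and Adamts1 (0.45), Mmp13 (1.73, low counts), Mmp19 (0.61) and Mmp9 (0.56). A gene on the opposite strand overlaps 21.3% of the Timp3 exon bases. Without either IL6 library 11 genes of the TGF-β list were called.

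Matrix genes moved in both directions, with 9 of 46 tested higher, 10 lower and a median of −0.003. That is 19.6% higher and 21.7% lower, against 4.2% and 3.46% of all tested genes. Lox, which crosslinks collagen and elastin, rose most, from 358 and 349.7 to 728 and 791 CPM (1.10 ± 0.095, adjusted p 3.23e-05). Fibrillar and associated collagens that rose included Col12a1 from 383 and 467 to 615 and 665 CPM (0.59), Col6a1 (0.46), Col6a2 (0.44) and Col3a1 (0.37), along with the proteoglycan gene Vcan (0.62). Among the collagen genes that fell, Col4a1 of the basement membrane went from 543 and 496 to 398 and 355 CPM (−0.47 ± 0.085), Col4a2 fell by 0.34, Col18a1 by 0.65 and Col8a1 by 0.68. The matricellular genes Postn, Thbs2 and Thbs1 fell by 0.85, 0.70 and 0.60, and Ccn2, the connective tissue growth factor gene, from 5.11 and 4.8 to 1.92 and 2.58 CPM (−1.14 ± 0.24). Col1a1 read 309 and 169 CPM in controls and 183 and 118 CPM with LIF, overlapping and not called. The 19 calls came down to 9 without LIF replicate 2 and to 12 without LIF replicate 1.

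Mitosis genes fell together. Of 43 tested, 40 fell and none rose, against 3.46% of all tested genes called lower, and in all 43 both LIF libraries lay below both controls, against 26.8% of all genes. The median change was −0.56, with a range from −0.83 to −0.33, so the fall was narrow in size and under 2-fold in every member. Mki67, the proliferation marker, went from 260.2 and 301 to 195 and 184 CPM (−0.57 ± 0.088, adjusted p 0.0021). Ccnb2, a mitotic cyclin gene, had the largest fall of the list, from 12.2 and 14.3 to 7.84 and 7.07 CPM (−0.83 ± 0.14). Cdc20, an activator of the anaphase-promoting complex, fell by 0.72, the centromere protein gene Cenpf by 0.69, the topoisomerase gene Top2a by 0.50 and Cdk1, the mitotic kinase gene, by 0.47. The 3 members not called were Aurkb, Nusap1 and Hmmr, with log2 changes of −0.43, −0.40 and −0.57.

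The number of calls depends on single libraries. Control replicate 2 was above replicate 1, with list medians of 0.11 and −0.12 relative to the control mean, and the LIF libraries lay at −0.49 and −0.64. Without LIF replicate 2, 8 of the 43 were called, without control replicate 2 there were 21 and without LIF replicate 1 there were 26. The 2 OSM libraries lay further down, at −1.93 and −1.76. In the direct test LIF was above OSM in all 43 members, and it was below IL6 in 14 and above it in none. Over all tested genes LIF was above OSM in 4.04%, below IL6 in 1.02% and above IL6 in 1.76%.

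DNA replication genes followed to a smaller extent, with 15 of 39 tested lower, none higher and a median of −0.29. The falls are 38.5% of those tested in the list, against 3.46% of all tested genes. Mcm5, a subunit of the replicative helicase, went from 23.2 and 22.7 to 15.4 and 14 CPM (−0.64 ± 0.093), and all 6 helicase genes Mcm2 to Mcm7 were called, the smallest fall being 0.30 in Mcm2. Pole, a DNA polymerase subunit, fell by 0.56, Tyms, which makes thymidylate, by 0.52, and Uhrf1, a partner of the maintenance DNA methyltransferase, by 0.54. Of genes of the G1 to S switch, Ccnd1 fell, as given above, while E2f1 and Ccne1 were not called: E2f1 read 38 and 43.1 and 39.99 and 42.5 CPM and Ccne1 11.9 and 14.1 and 13.1 and 13.9 CPM, overlapping between groups. Pcna had a log2 change of −0.16 and Cdkn1a, the p21 inhibitor gene, of 0.15, neither called. The list had 4 calls without LIF replicate 2, and without LIF replicate 1 there were 6 and without control replicate 2 there were 8.

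**Figure D3:**
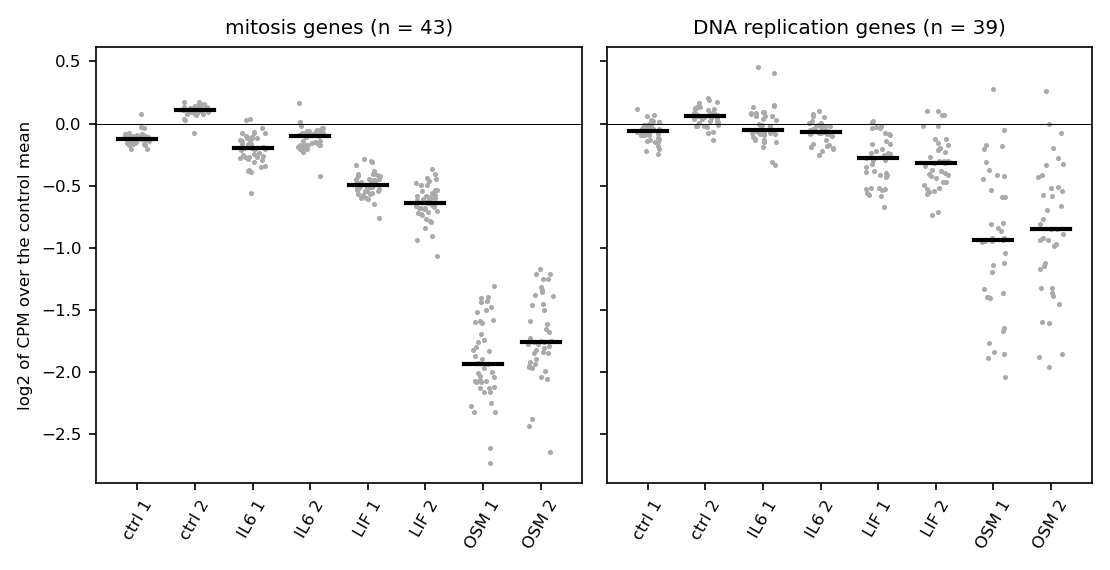
Log2 of the CPM over the mean of the 2 controls for each tested mitosis gene (43, left) and DNA replication gene (39, right) in each of the 8 libraries; each grey point is a gene and each bar the median. The mitosis medians lie at −0.49 and −0.64 in the LIF libraries, between those of IL6 (−0.20 and −0.098) and OSM (−1.93 and −1.76).

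Promoters of mitosis genes are known for CCAAT boxes, bound by NF-Y, and for the cell cycle homology region (CHR), bound by the DREAM and MuvB complexes, and a pair is shown for the genes that fell together. Matches to CCAAT and to the CHR TTTGAA on either strand are in capitals in the 250 bases before the start (RefSeq, GRCm38.p6), for Ccnb2 at chr9:70421555-70421804 and Cdc20 at chr4:118437344-118437593, both on the minus strand.
Ccnb2: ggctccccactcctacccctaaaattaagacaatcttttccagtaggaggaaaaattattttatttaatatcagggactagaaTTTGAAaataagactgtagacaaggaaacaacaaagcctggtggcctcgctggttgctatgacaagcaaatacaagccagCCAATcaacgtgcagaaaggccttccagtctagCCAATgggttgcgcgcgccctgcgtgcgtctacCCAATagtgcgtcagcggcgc
Cdc20: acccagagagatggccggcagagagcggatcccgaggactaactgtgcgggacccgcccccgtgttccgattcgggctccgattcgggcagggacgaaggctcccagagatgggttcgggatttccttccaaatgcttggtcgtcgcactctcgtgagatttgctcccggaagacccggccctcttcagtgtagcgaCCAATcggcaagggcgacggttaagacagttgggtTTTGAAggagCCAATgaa
Ccnb2 holds 3 CCAAT boxes and 1 CHR match, and Cdc20 holds 2 CCAAT boxes and 1 CHR match. CCAAT stood in 25 of the 33 mitosis genes that fell and have an entry (75.8%), against 37.5% of all promoters, and the CHR in 13 of them (39.4%) against 18.3%. Of the replication genes, CCAAT stood in 10 of the 13 that fell and 7 of the 18 not called, whereas the CHR stood in 1 of the 13 (7.69%) and 3 of the 18 (16.7%), below its 18.3% of all promoters. These motifs were chosen after the changes were seen.

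Contractile and sarcomere genes moved in both directions, with 10 of 49 tested lower, 5 higher and a median of −0.15. That is 20.4% lower and 10.2% higher, against 3.46% and 4.2% of all tested genes. Those that fell include isoforms typical of embryonic, neonatal, cardiac or slow muscle: Myh7, the slow myosin heavy chain, from 1223 and 914 to 707 and 679.9 CPM (−0.62 ± 0.11), Actc1, cardiac actin, from 2508 and 2369 to 1863 and 1554 CPM (−0.51 ± 0.11), Myl4, the embryonic light chain (−0.33), Tnni1, slow troponin I (−0.32) and Myh8, the neonatal heavy chain (−0.24). Among those that rose were the fast-fibre genes Mybpc2, fast myosin-binding protein C, from 10.9 and 10.04 to 25 and 21.7 CPM (1.16 ± 0.14), and Actn3, from 204 and 224 to 329.6 and 310.2 CPM (0.58 ± 0.065). Not all isoforms followed that split. Tnnt1, slow troponin T, rose by 0.22, while Tnnc2, fast troponin C, fell by 0.38. The mitosis gene Ube2c, which also fell, overlaps 74% of the Tnnc2 exon bases on the opposite strand, so the Tnnc2 fall is less certain. The fast heavy chains Myh1 and Myh4 had changes of −0.38 and 0.084, and embryonic Myh3 of −0.12, none called.

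Des, the desmin intermediate filament gene, was among the most abundant genes that rose, from 1035 and 998 to 1537 and 1443 CPM (0.55 ± 0.063, adjusted p 1.81e-04). LIF was above OSM by direct test for Des, Actn3, Mybpc2 and Tnnt1. Myh2 had the largest fitted fall of the list, −3.58, but its controls read 8.99 and 2.38 CPM, its adjusted p was 0.0454, and it shares 28.9% of its 50-base stretches with other myosins. Its call was lost with the replicate block, with no filter on low counts and without any 1 LIF or IL6 library, with an adjusted p of up to 0.262. The call of Myh8 was lost without any 1 LIF, OSM or control library. Sequence shared with relatives also touches Myh7 (28.3%) and Myh8 (21.4%), and an opposite-strand gene overlaps 49.9% of the exon bases of Mybph, which fell by 0.41. Without LIF replicate 2 the list had 3 calls, without LIF replicate 1 it had 5, without either OSM library 7 and without control replicate 1 it had 9.

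Of 31 tested myogenic regulators and fusion genes 4 rose and 3 fell (12.9% and 9.68%, against 4.2% and 3.46% of all tested genes). Myog, the factor that drives terminal differentiation, went from 1253 and 1014 to 842 and 842 CPM (−0.43 ± 0.086, adjusted p 0.00826), both LIF libraries below both controls. Its partners Mef2c and Mef2a fell by 0.27 and 0.27. The late regulator Myf6 rose by 0.46, Id2, an inhibitor of such factors, by 0.55, and Itga7, a laminin receptor gene, by 0.35. The call of Id2 was lost without any 1 LIF or control library. That of Myf6 was lost in DESeq2, without either LIF library and without control replicate 1. Myod1, Pax7 and the fusion gene Mymk had changes of −0.091, 0.13 and −0.059 and were not called. When either LIF library was left out, 1 of the 31 was called, and without control replicate 1 there were 4.

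Of 41 tested calcium handling and excitation genes, 3 rose and 1 fell (9.76% called, against 7.66% of all tested genes). Cacna1g went from 25.3 and 23.2 to 9.05 and 8.17 CPM (−1.49 ± 0.13, adjusted p 1.93e-05), its groups far apart, while the related T-type channel gene Cacna1h rose by 0.33. Sln, sarcolipin, an inhibitor of the calcium pump, rose from 3.81 and 5.57 to 8.37 and 10.7 CPM (1.02 ± 0.18), and the potassium channel gene Kcna7 by 0.52, a call lost in DESeq2 and without any 1 LIF, OSM or control library. Ryr1, Cacna1s and Atp2a1, the core of excitation-contraction coupling, had changes of 0.096, −0.059 and 0.036. The calcium list had 1 call without LIF replicate 2, and without LIF replicate 1 it had 2 and without either IL6 library 9. Of 19 tested neuromuscular junction genes 3 fell (15.8%, against 3.46% of all tested genes) and none rose. Those that fell included the ETS factor genes Etv4, from 13.7 and 14.1 to 7.2 and 7.13 CPM (−0.95 ± 0.13), and Etv5 (−0.55). The third was Colq, the collagen tail of acetylcholinesterase, from 17.3 and 19.3 to 11 and 10.7 CPM (−0.76 ± 0.11). The acetylcholine receptor genes Chrna1, Chrnd and Chrng had changes of 0.052, 0.17 and 0.22, none called.

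Of 39 tested genes of atrophy and protein breakdown, 4 rose (10.3%, against 4.2% of all tested genes) and none fell. Nos2, inducible nitric oxide synthase, rose from 184 and 165 to 305 and 321 CPM (0.84 ± 0.12) and Fbxo32, the ubiquitin ligase atrogin-1, from 55.3 and 62.8 to 79 and 80.7 CPM (0.44 ± 0.071, adjusted p 0.0024). Fbxo40 rose by 0.52 and the lysosomal protease gene Ctsb by 0.40, calls that were both lost without either LIF library, either OSM library or control replicate 1. Trim63, the ubiquitin ligase MuRF1, read 67.1 and 68.9 CPM in controls and 67 and 63.1 CPM with LIF (log2 change −0.064 ± 0.14) and was not called. Its LIF replicate 1, at 67.03 CPM, nearly equalled control replicate 1, at 67.08 CPM. Fbxo32 was lower with LIF than with OSM in the direct test (log2 difference −0.74, adjusted p 2.56e-05). Without either OSM library, LIF replicate 1 or control replicate 1 the list had 2 calls, and without either IL6 library 7.

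Among metabolic genes, Car3 stood apart. Its OSM libraries read 14.7 and 14.3 CPM and its IL6 libraries 11.2 and 12.2 CPM, so the LIF libraries at 3.8 and 5.19 CPM were the lowest of the 8. LIF was below OSM (log2 difference −1.68, adjusted p 3.98e-05) and below IL6 (−1.38, adjusted p 7.76e-04) in the direct tests. Of 34 tested genes of glycolysis, glycogen and phosphocreatine, which the list groups with Car3, 3 fell and 1 rose. That is 11.8% called, against 7.66% of all tested genes. The other falls were Slc2a4, the insulin-regulated glucose transporter (−0.63), and Ckmt2, mitochondrial creatine kinase (−0.42), and the rise was Pfkfb3 (0.37). The glycolytic enzyme genes Pkm, Aldoa, Eno3 and Ldha had changes between −0.09 and −0.019. Respiratory chain genes were called lower in 4 of 43 (9.3%, against 3.46% of all tested genes), with a list median of −0.098. They were led by Cox6a2, a muscle cytochrome oxidase subunit, from 188 and 167 to 121 and 119 CPM (−0.57 ± 0.075). Without either LIF library 1 member was called in each of these lists, and without control replicate 1 also 1 respiratory gene. Without either OSM library there were 2 respiratory genes.

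Antioxidant genes of the NRF2 factor held 5 falls among 28 tested (17.9%, against 3.46% of all tested genes) and no rise. Nqo1, a quinone reductase gene, went from 40.4 and 47.7 to 16.8 and 18 CPM (−1.34 ± 0.16, adjusted p 9.19e-04) and Aldh3a1, an aldehyde dehydrogenase gene, from 8.3 and 13.8 to 3.6 and 4.69 CPM (−1.42 ± 0.23). Txnrd1, thioredoxin reductase, fell by 0.37 and Srxn1, sulfiredoxin, by 0.31. Hmox1, Gclm and Nfe2l2, other members, had changes of 0.15, −0.31 and 0.0054 and were not called. Of 34 genes of cholesterol and fatty acid synthesis, Ebp and Abca1 rose by 0.47 and 0.51 (the call of Abca1 was lost in DESeq2 and without any 1 LIF, OSM or control library) and Dhcr7 fell by 0.41, and of 21 Notch genes Dlk1 fell by 0.88, so both lists were near the background. Without either LIF library 2 of the 28 NRF2 members and none of the Notch members were called, and of the cholesterol list 0 without LIF replicate 1 and 1 without LIF replicate 2. Without either OSM library 3 NRF2 members were called.

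**Figure D4:**
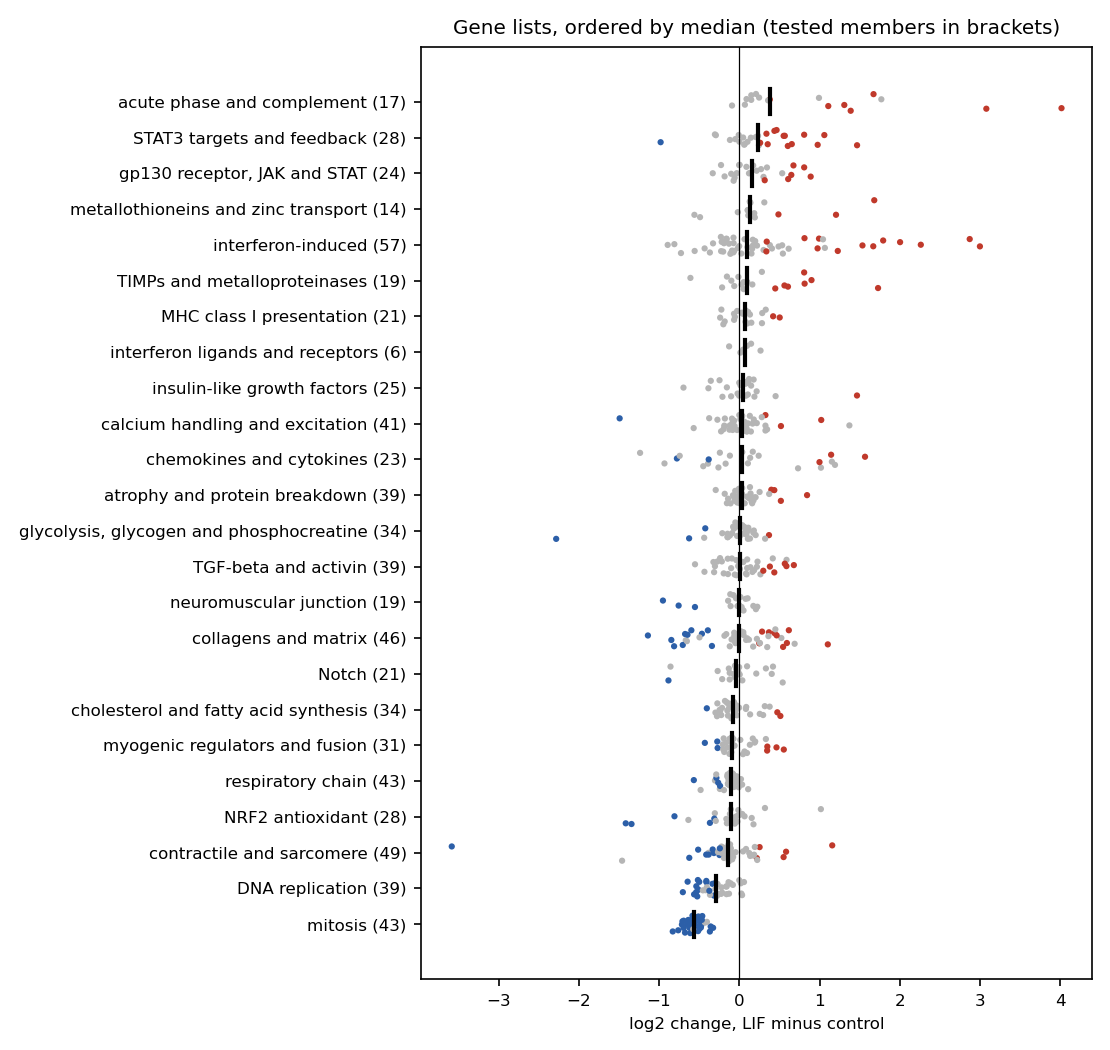
Each point is a tested member of 1 of the 24 process lists by its log2 change, LIF minus control, with the number tested in brackets and the median as a black bar; red members were called higher, blue lower and grey not called. The lists run from mitosis (median −0.56) to acute phase and complement genes (median 0.38), and Serpina3n at 4.01 is the rightmost point.

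Direct tests compare the cytokine groups with each other, and the control libraries enter them through the pooled spread. LIF differed from OSM in 1255 genes (8.04%), 630 higher (4.04%) and 625 lower (4.01%), and from IL6 in 434 genes (2.78%), 275 higher (1.76%) and 159 lower (1.02%). Without LIF replicate 1 the counts were 430 and 78, without LIF replicate 2 they were 594 and 94, and without OSM replicate 1 they were 443 and 231. Without OSM replicate 2 they were 636 and 229, and without IL6 replicate 2 the count against IL6 was 712. Serpina3n lay between IL6 and OSM, with 0.695 and 1.89 CPM with IL6, 16.5 and 18.7 CPM with LIF and 53.7 and 58.8 CPM with OSM. LIF was below OSM by direct test for Igfbp3 (log2 difference −1.31), Il33 (−1.87), Timp1 (−1.0) and Lox (−0.62), and above it for Cacna1g (2.27). Socs3 and Osmr read nearly the same with LIF as with OSM, with differences of 0.10 ± 0.061 and 0.064 ± 0.08, neither called.

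A smaller set lay further from the controls with LIF than with OSM. Ifit1, Stat2 (log2 difference, LIF minus OSM, 0.31), Irgm1 (0.43), Irgm2 (0.49), Olfml3 (0.42) and the contractile genes Mybpc2 (0.68) and Actn3 (0.31) rose with LIF and were called higher than with OSM. In the other direction, Car3, Ccn2 (−1.47), Etv4 (−0.54), Etv5 (−0.40) and Ckmt2 (−0.37) fell with LIF and were called lower than with OSM. Ccn2 read 1.92 and 2.58 CPM with LIF against 7.29 and 5.23 CPM with OSM and 5.11 and 4.8 CPM in the controls, so its OSM libraries were not below the controls. Ccn1, its relative, fell with LIF by 0.43 and read 101 and 104 CPM with OSM, above both controls at 52.7 and 68.6 CPM.

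**Figure D5:**
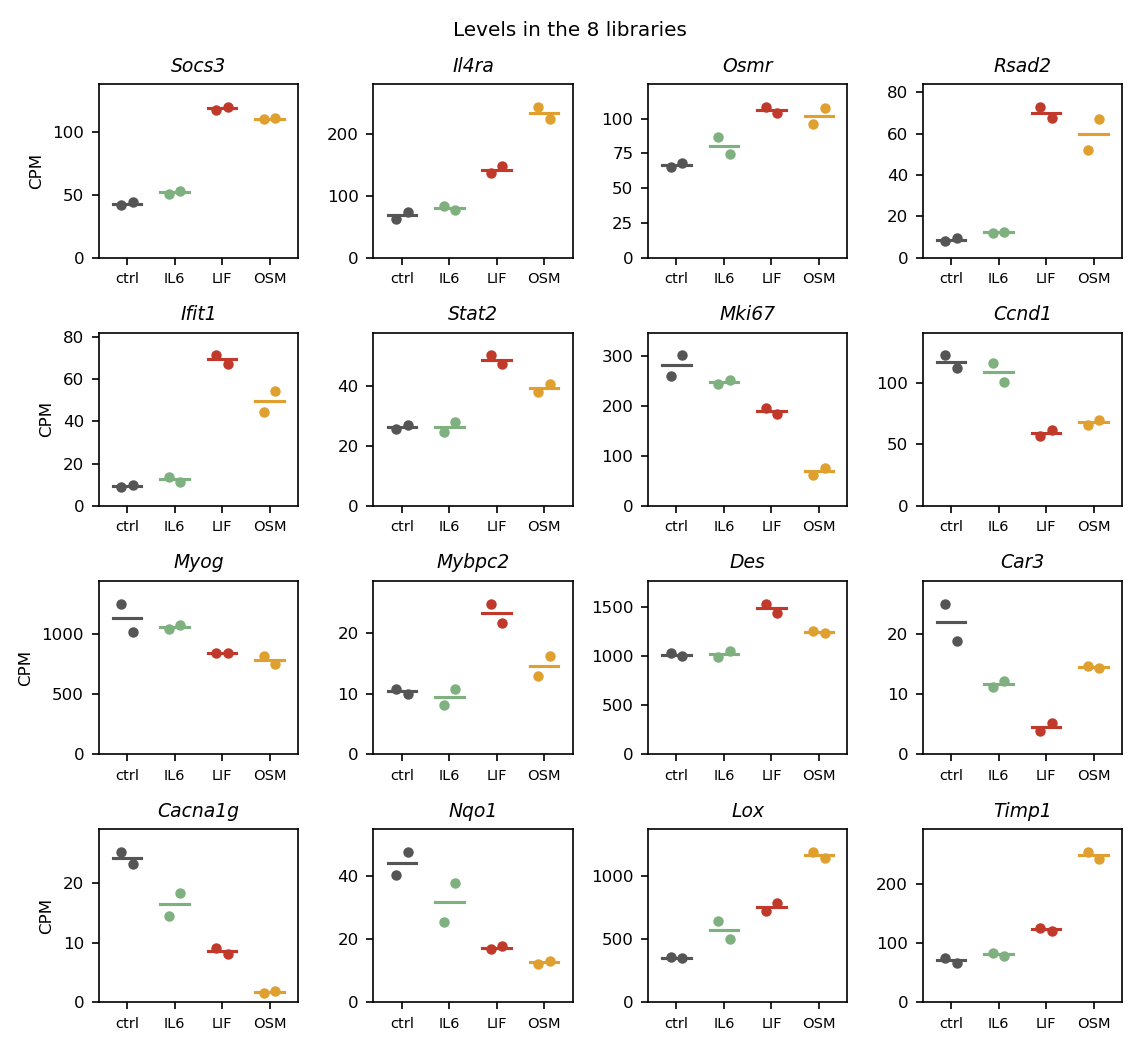
CPM of 16 genes in the 8 libraries (points) with the mean of each pair (bar), each panel on its own linear axis from 0. Socs3, Osmr and Rsad2 reach like levels with LIF and OSM, Mki67 and Timp1 lie between IL6 and OSM with LIF, and Car3 and Ccnd1 have their lowest mean with LIF.

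Markers of other cell types were read beside these results. The 14 macrophage markers summed to between 9.47 and 10.7 CPM in controls and 16.3 CPM in both LIF libraries, most of it Mrc1, which rose from 7.24 and 5.64 to 11.7 and 10.9 CPM (0.81). The other 3 tested markers, Cd68, Cd14 and Itgam, had log2 changes of 0.31, 0.79 and 0.64 and were not called. In all 4 tested markers both LIF libraries lay above both controls. Over all tested genes both LIF libraries lay above both controls in 25.2% and below both in 26.8%. C1qb, C1qc and Tyrobp had 0 counts in the 4 libraries, and Ptprc and Adgre1 had at most 2 in any of them. The 12 fibroblast markers summed to between 1715 and 1789 CPM in controls and 2076 and 2138 CPM with LIF, mostly Col3a1, and Ly6a rose from 29.8 and 40.2 to 66.1 and 71.3 CPM, while Lum and Tcf21 were at 0 counts and Pdgfra was not called (0.21). The other 3 tested fibroblast markers, Pdgfrb, Dcn and Col1a1, had log2 changes of −0.45, −0.12 and −0.67 and were not called, with both LIF libraries below both controls in Pdgfrb. Their part in the rises of matrix and complement genes was not tested. Lymphocyte markers summed to at most 0.446 CPM, adipocyte markers to at most 0.74 CPM and endothelial markers to at most 6.09 CPM in these 4 libraries, and no tested member of those lists was called. Of 9 tested myoblast markers, Sdc4 and Itga7 rose by 0.43 and 0.35, and Pax7, Pax3 and Myf5 were not called. The 8 glia markers summed to between 160.1 and 173.7 CPM in controls and 178.5 and 187.4 CPM with LIF, nearly all Erbb3, and of 7 tested smooth muscle and pericyte markers Des and Abcc9 rose. Abcc9 (0.37, adjusted p 0.0466) lost its call in DESeq2, in the 2-group fit and without any 1 LIF, OSM or control library. Cnn1 and Rgs5 had log2 changes of −0.55 and −1.14, not called, with both LIF libraries below both controls.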

How the data were processed

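The deposited files hold raw read counts per gene, 1 file per library; per the submitters' processing notes the tools were Trim Galore 0.6.5, STAR 2.7.3a and HTSeq 0.11.1 on GRCm39, with the strand setting not given in the sources used here. Libraries were poly(A) and stranded, per the labels' protocols. Reads outside genes (11.7% to 12.7% per library) were left out. Symbols came from GENCODE M21, which names 52093 of 53647 identifiers.

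Counts were tested in edgeR 4.0.16 (R 4.3.3): filterByExpr with a minimum count of 10, TMM scaling, a robust quasi-likelihood fit of 4 groups to 8 libraries with 4 residual degrees of freedom, and Benjamini-Hochberg adjustment per contrast. Changes are log2 values ± SE. The test was run on simulated data first. DESeq2 1.42.0 was among the alternatives.

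Named genes were, among called protein-coding genes with at least 100 mean counts, a gene name of their own and no overlap between groups, the 12 largest rises and falls, plus the 4 largest called members of each of 24 process and 9 marker lists and a fixed set of receptor, STAT and muscle genes. Other members were chosen after their values were seen. Some genes that the rule names are not reported here. The comparison and the lists were chosen with earlier results of these data known. Shared 50-base stretches and exon overlap come from M21 transcripts. With 2 libraries per group, precision rests on the spread pooled over groups.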

Additional observations from a re-analysis of the deposited data

How the results depend on the processing

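The direction of each named gene held in every alternative run, and 57 of the 107 named genes that were called kept their call in all alternatives that left the threshold alone. DESeq2's size factors within edgeR called 1199 genes and DESeq2's Wald test 1118, sharing 1192 and 1054 with the 1195 reported, a minimum count of 50 gave 1180 and a fit of the LIF and control groups alone 1302. An unadjusted p under 0.05 was met by 3203 genes. Counting error limits low-count genes, and 2 libraries a group limit all.

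At an adjusted p under 0.01, LIF against control had 558 genes (329 higher, 229 lower), LIF against OSM 654 (340 and 314) and LIF against IL6 132 (100 and 32). With at least 2-fold required they had 176 (121 and 55), 283 (173 and 110) and 65 (49 and 16). Without a filter on low counts LIF against control had 836 genes lower, and LIF against IL6 985 (545 and 440). With only the groups compared, LIF against OSM had 2936 (1439 and 1497).

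Same-numbered control and LIF libraries deviated together with a correlation of 0.103, and the other pairs of groups had 0.007 to 0.181, so the numbers were not taken to pair the samples. With the replicate block LIF against control had 1670 genes, 1193 of them among the 1195, and LIF against IL6 826 (468 and 358). Under the block the lists of calcium handling had 9 calls, cholesterol 6, insulin-like growth factors 2 and Notch 4.

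Leaving out 1 library gave 310 to 1684 genes for LIF against control (209 to 875 higher, 101 to 809 lower), 430 to 1758 for LIF against OSM (239 to 874 and 181 to 884) and 78 to 712 for LIF against IL6 (65 to 405 and 13 to 307). The calls in each list then ran over these ranges: gp130 4 to 6, STAT3 7 to 14, acute phase 3 to 8, interferon-induced 7 to 14, MHC class I 0 to 3, cytokines 3 to 7, contractile 3 to 21, myogenic 1 to 10, calcium 1 to 9, junction 3 to 4, atrophy 2 to 7, replication 4 to 18, mitosis 8 to 40, matrix 9 to 22, metalloproteinases 5 to 9, TGF-β 4 to 11, insulin-like growth factors 1 to 3, glycolysis 1 to 4, respiratory 1 to 6, cholesterol 0 to 6, Notch 0 to 4 and NRF2 2 to 5.

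For the list counts, an adjusted p under 0.01 left 4 acute phase, 8 interferon-induced, 0 MHC class I, 5 contractile, 3 myogenic, 2 calcium, 2 atrophy, 8 replication, 24 mitosis, 2 glycolysis, 1 respiratory, 1 cholesterol and 3 NRF2 genes. With 2-fold required there were 8 interferon-induced, 2 each of STAT3, cytokine, contractile, calcium, matrix and NRF2 genes, 1 metalloproteinase and 1 glycolysis gene, and 0 of the gp130, MHC class I, myogenic, junction, atrophy, replication, mitosis, TGF-β, respiratory, cholesterol and Notch lists. Without the low-count filter there were 24 contractile, 8 calcium, 7 atrophy, 10 TGF-β, 3 insulin-like, 8 cholesterol and 2 Notch genes. A minimum count of 50 gave 2 insulin-like and 2 Notch genes, and the 2-group fit 2 insulin-like genes. The cause was not tested.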

Other observations

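Lists written after the values had been seen describe further groups, and carry no support of their own. Over all tested genes 4.2% rose and 3.46% fell with LIF. Of 6 tested genes of the imprinted Dlk1-Dio3 cluster, a block of maternally and paternally expressed genes on mouse chromosome 12, 4 fell. Rtl1, a retrotransposon-derived gene expressed from the paternal copy, went from 3.95 and 4.33 to 0.706 and 0.871 CPM (−2.39 ± 0.24), with 2.67 and 3.09 CPM with OSM and 2.91 and 3.68 CPM with IL6. The maternal long non-coding RNA Meg3 went from 4.39 and 4 to 0.975 and 1.41 CPM (−1.81 ± 0.22) and Rian from 10.7 and 9.64 to 4.44 and 4.76 CPM (−1.14 ± 0.13). LIF was below OSM for 3 of the 6 and below IL6 for 4 in the direct tests, against 4.01% and 1.02% of all tested genes. For Rtl1, Meg3 and Rian both LIF libraries were the lowest of the 8. The miRNA genes of this cluster were not read here.

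Among 12 tested genes of the aryl hydrocarbon receptor pathway 3 fell, Cyp1a1 from 3.29 and 2.45 to 0.706 and 1 CPM (−1.74 ± 0.29) beside Nqo1 and Aldh3a1, which the NRF2 list also holds, and Tiparp rose by 0.34. Of 19 ERK-response genes 4 fell, Ccnd1, Etv4, Etv5 and the ephrin receptor gene Epha2 (55.5 and 49.3 to 31.9 and 33.7 CPM, −0.68 ± 0.083), and none rose, while Dusp6, Spry4 and Egr1 had changes of −0.40, −0.062 and −0.46 and were not called. LIF was below OSM for 8 of these 19, against 4.01% of all tested genes. Of 19 actin, YAP and SRF target genes 6 fell and none rose. Among the falls were Actb, cytoplasmic actin, from 436 and 459.9 to 376 and 367 CPM (−0.27 ± 0.069), Ccn1 and Tagln (−0.56). LIF was below OSM for 9 of the 19, against 4.01% of all tested genes. Of 12 tested interferon-inducible GTPase genes 6 rose, including Irgm2 (25.3 and 24.4 to 45.4 and 46.9 CPM), and the ISRE core stood in the 250 bases before the start of each of the 6 that rose and 2 of the 3 not called that have an entry, against 8.18% of all promoters.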
